A study of Homo sapiens with 6 samples.

Results

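Transcripts of 10 genes of selective autophagy were followed in OE33 cells, an established cell line of oesophageal adenocarcinoma, across 6 RNA sequencing libraries. The genes were taken by symbol through GENCODE 29: the cargo receptors SQSTM1, NBR1, OPTN and TAX1BP1, the ATG8 genes GABARAP, GABARAPL1, GABARAPL2 and MAP1LC3B, the phosphoinositide-binding gene WIPI1 and the kinase gene ULK1. All 10 were found among the 58051 genes counted, and all 10 passed the filter on low counts. They were picked by name, with earlier results of these libraries known. The 3 untreated libraries came from OE33 cultures without the compound, for which no vehicle is named. The 3 treated libraries came from OE33 cultures exposed for 24 h to APX2009 at 15 µM, an inhibitor of the redox activity of the DNA repair protein APE1. All cultures were of this 1 line, labelled parental cells in the deposit, and were grown in RPMI1640 with serum. No inactive compound and no APE1 knockdown was among the libraries, so the comparison is between exposed and unexposed cells.

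Autophagy encloses cytoplasm in a double membrane that then fuses with the lysosome. The ULK1 kinase starts the process, WIPI proteins read the phosphoinositide made at the growing membrane, and ATG8 proteins (the LC3 and GABARAP subfamilies) are attached to lipid in that membrane. Receptors such as p62, the product of SQSTM1, bind ubiquitin-tagged cargo with one part and ATG8 proteins with another, and are themselves degraded with the cargo. Transcript levels therefore say nothing on the rate of autophagy, and protein and lipid-bound ATG8 were not measured here.

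The libraries held 21158750 to 26111656 gene counts, and single counts of the 10 genes ran from 495 for WIPI1 to 51715 for SQSTM1. Levels are given as CPM, counts scaled to a common library total with TMM normalisation. APX2009 replicate 1 stood apart from the other libraries. It had counts in 25015 genes, where the other libraries had 21845 to 22446. Synthetic ERCC spike-in transcripts took 0.315% of its counts, against 0.752% and 0.734% in the other treated libraries and 0.480% to 0.564% in untreated ones. All 10 epithelial markers listed for the check were present, EPCAM among them at 439.5 to 461.4 CPM. Of these 10, 6 fell (edgeR adjusted p under 0.05), where 17.4% of all genes tested fell, and EPCAM, CLDN4, CLDN7 and ELF3 did not pass. Summed CPM of all 10 was 29910 to 30610 in untreated and 17310 to 21310 in treated libraries. KRT19 alone made up most of this sum in every library, and went from 18550 ± 382 to 11300 ± 1400 CPM (SD, n = 3). Markers of other cell types were low in CPM, but several were seen almost only in APX2009 replicate 1. The fibroblast genes COL1A2, COL3A1 and DCN had 26, 48 and 42 counts there and 0 in each of the other 5 libraries. The endothelial genes VWF and PECAM1 had 36 and 10 counts there, against 1 to 8 and 0 to 1 elsewhere. Summed CPM of 8 fibroblast genes was 8.43 to 12.7 in untreated and 9.16 to 19.4 in treated libraries, and that of 6 endothelial genes 0.0445 to 0.442 and 0.0889 to 2.25. Both upper ends are APX2009 replicate 1, and COL1A1 alone made up most of the fibroblast sum in every library. That of 9 leukocyte genes was 6.81 to 6.99 and 7.04 to 8.13, with CD3E and CD3D at 0 in every library, as was the fibroblast marker THY1. Among the leukocyte genes CD68, a lysosomal membrane protein, rose 2.28-fold (edgeR adjusted p = 0.00513) from a level of 1.39 ± 0.436 CPM (SD, n = 3). The part of these shifts in the results on the 10 genes was not tested.

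After APX2009, 8 of the 10 genes rose and 0 fell (edgeR; 0 also at an unadjusted p under 0.05 and by DESeq2 and limma voom). On leaving out 1 library, 8 rose without APX2009 replicate 1, 7 without APX2009 replicate 2 or 3, 6 without untreated replicate 1 and 5 without untreated replicate 2 or 3. The number of all genes called higher moved too. It was 2839 without APX2009 replicate 1 and 1708 without untreated replicate 3, beside 2543 in the full comparison. Without APX2009 replicate 1 the log2 changes of GABARAPL1, SQSTM1 and WIPI1 were 1.53, 1.37 and 1.12. GABARAPL1 was 2.76-fold, SQSTM1 2.45-fold and WIPI1 2.07-fold higher, GABARAP 1.60-fold and GABARAPL2 1.30-fold higher. TAX1BP1, ULK1 and OPTN rose 1.20-fold, 1.19-fold and 1.14-fold, and MAP1LC3B and NBR1 did not pass the test. A gene was said to rise or fall at an edgeR adjusted p under 0.05, and 34.7% of the 14773 genes tested did so, 17.2% of all upward and 17.4% downward. The treated values of these 8 genes all lay above the untreated ones; groups did not overlap, in either direction, for 49.4% of all genes. Rises of at least 2-fold, seen in 3 of the 10 genes, were seen in 2.94% of all genes. The median log2 change of the 10 was 0.32, beside 0.02 for all genes tested. In lysates of whole cultures, a change in every cell and a change in some cells cannot be told apart.

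**Figure D1:**
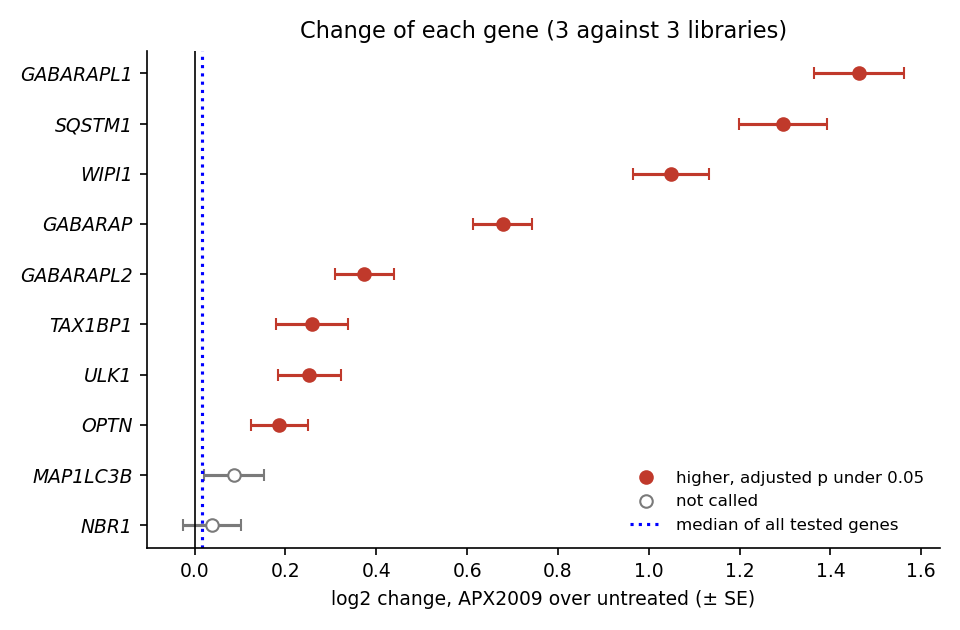
Log2 change of each gene, APX2009 over untreated, from 3 against 3 libraries. Points are edgeR estimates with bars of 1 standard error (SE), filled where the gene rose and open where it did not pass. The values run from 0.04 for NBR1 to 1.46 for GABARAPL1, and the dotted line marks the median of all tested genes.

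Short stretches around the annotated starts were searched for sites that stress and nutrient factors are known to bind, because most of these genes moved in one direction. RefSeq windows (build GRCh38.p14) from 250 bases before to 50 bases after each start were on hand for all 10 genes, 15 windows in all. The matches are shown 5′ to 3′ on the gene's own strand, with the match in capitals and its first base counted from that window's RefSeq start. These starts are not the only ones annotated. Of the 250 bases before the start, GENCODE 29 places 250 in exons for GABARAP and MAP1LC3B, 199 for GABARAPL1, 198 for SQSTM1 and 17 for WIPI1. The RefSeq start lies 321 bases from the start of the principal transcript for GABARAP, 536 for MAP1LC3B, 146 for SQSTM1, 75 for WIPI1 and 51 for GABARAPL1. All sites printed here other than that of WIPI1 lie within the span of the annotated gene. The SQSTM1 site at -139 and the GABARAP site lie after the start of the principal transcript of their gene. For the sites of GABARAPL1 and MAP1LC3B the side of that start was not determined. The lines hold the site in GABARAPL1, the sites before the RefSeq start in the other genes that rose, and that of MAP1LC3B, which did not pass. Lines named antioxidant response element core show matches to a loose pattern, TGANNNNGC, and need not hold the full core. The name is that of the search only. The base after TGA is G or A in the SQSTM1 matches and G in that of GABARAP. It is T in that of WIPI1, read on the opposite strand, and C only in that of MAP1LC3B.
GABARAPL1, cAMP response element at -30, chr12:10212836-10212865, plus strand: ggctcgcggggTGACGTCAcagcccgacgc
SQSTM1, antioxidant response element core at -190, chr5:179820705-179820734, plus strand: gggtcagcaaTGAGGGGGCcgggagacctg
SQSTM1, antioxidant response element core at -139, chr5:179820756-179820785, plus strand: gggagagtagTGAAGGGGCctctgcagggc
GABARAP, antioxidant response element core at -124, chr17:7242554-7242583, minus strand: gctaatggcgTGAGGGGGCcggtcagttgg
WIPI1, antioxidant response element core on the opposite strand at -174, chr17:68457651-68457680, minus strand: caggggccccGCCCTATCAggtgctctggt
MAP1LC3B, antioxidant response element core at -46, chr16:87392280-87392309, plus strand: gcgagtcaccTGACCAGGCtgcgggctgag

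These matches are a description of letters, not of binding. The antioxidant response element core was searched on both strands in a loose form, TGANNNNGC. This takes any base after TGA, so a match need not hold the full core. The loose form stood in 5 of the 15 windows, against 41.8% of all 35116 windows of the same length. Its 5 windows belong to SQSTM1, NBR1, GABARAP, MAP1LC3B and WIPI1, and so to genes that rose and to both that did not pass. The cAMP response element, TGACGTCA, stood in 1 of 15 windows, that of GABARAPL1, against 1.85% of all windows. The E-box CACGTG, the core of the site for TFEB and TFE3, and the forkhead core GTAAACA stood in 0 of the 15 windows. Among all windows these were found in 7.26% and 3.42%. Matches of different motifs did not overlap in these 15 windows.

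SQSTM1 (ENSG00000161011, chromosome 5, plus strand, 179806398 to 179838078, GRCh38) codes for p62, which also holds KEAP1 away from NRF2. Its level was 839, 882 and 892 CPM in the untreated libraries and 1912, 2025 and 2477 CPM in the treated ones. The groups did not overlap, and APX2009 replicate 3 was the highest. The log2 change was 1.30 ± 0.10 (SE; edgeR adjusted p = 8.56e-06), and it was 1.17 without APX2009 replicate 3. Exons of MRNIP, on the opposite strand, cover 20.7% of the exon bases annotated to SQSTM1. MRNIP itself rose from 18.4 ± 3.11 to 46.6 ± 16.8 CPM (SD, n = 3; edgeR adjusted p = 0.00122), with its highest count in APX2009 replicate 1. Whether counting used strand is not given in the sources used here, and the part of shared bases in either rise was not tested.

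NBR1 (ENSG00000188554, chromosome 17, plus strand, 43170481 to 43211689) codes for a receptor that binds ubiquitin and ATG8 proteins and joins p62 in cargo condensates. It was at 259, 277 and 273 CPM in untreated and at 269.8, 275 and 284 CPM in treated libraries, with overlapping groups. The log2 change was 0.04 ± 0.06 (SE; edgeR adjusted p = 0.673), with a 95% interval from -0.10 to 0.18. Within a library, the ratio of SQSTM1 to NBR1 counts does not depend on how libraries are scaled. This ratio was 3.25, 3.19 and 3.27 in untreated libraries and 7.09, 7.35 and 8.71 in treated ones, 2.39 times as high on average. The exact two-sided permutation test gave p = 0.1 (0.12 adjusted over 6 ratios), and 0.1 is the smallest value that 3 against 3 libraries allow.

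OPTN (ENSG00000123240, chromosome 10, plus strand, 13099449 to 13138308) codes for optineurin, a receptor for damaged mitochondria and bacteria that TBK1 phosphorylates. Its level was 73.2, 69.8 and 69.3 CPM in untreated and 77.3, 80.0 and 84.4 CPM in treated libraries. The groups lay apart by a small gap, and the log2 change was 0.19 ± 0.06 (SE; edgeR adjusted p = 0.0403). This was the weakest call of the 8. It was lost with DESeq2 (adjusted p = 0.0675) and without a filter (edgeR adjusted p = 0.112). It was also lost on leaving out any library other than APX2009 replicate 1 (edgeR, adjusted p between 0.0541 and 0.145).

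TAX1BP1 (ENSG00000106052, chromosome 7, plus strand, 27739331 to 27844564) codes for a receptor of protein aggregates. Its level was 306.5, 307 and 306.8 CPM in the untreated libraries and 410.3, 347 and 343 CPM in the treated ones. The 3 untreated values lay within 1 CPM of each other, and APX2009 replicate 1 was the highest of the treated libraries. The log2 change was 0.26 ± 0.08 (SE; edgeR adjusted p = 0.0299) and 0.17 without APX2009 replicate 1, where it still passed (edgeR adjusted p = 0.0113). It no longer passed when untreated replicate 1, 2 or 3 was left out (edgeR adjusted p = 0.0856, 0.0934 and 0.111).

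**Figure D2:**
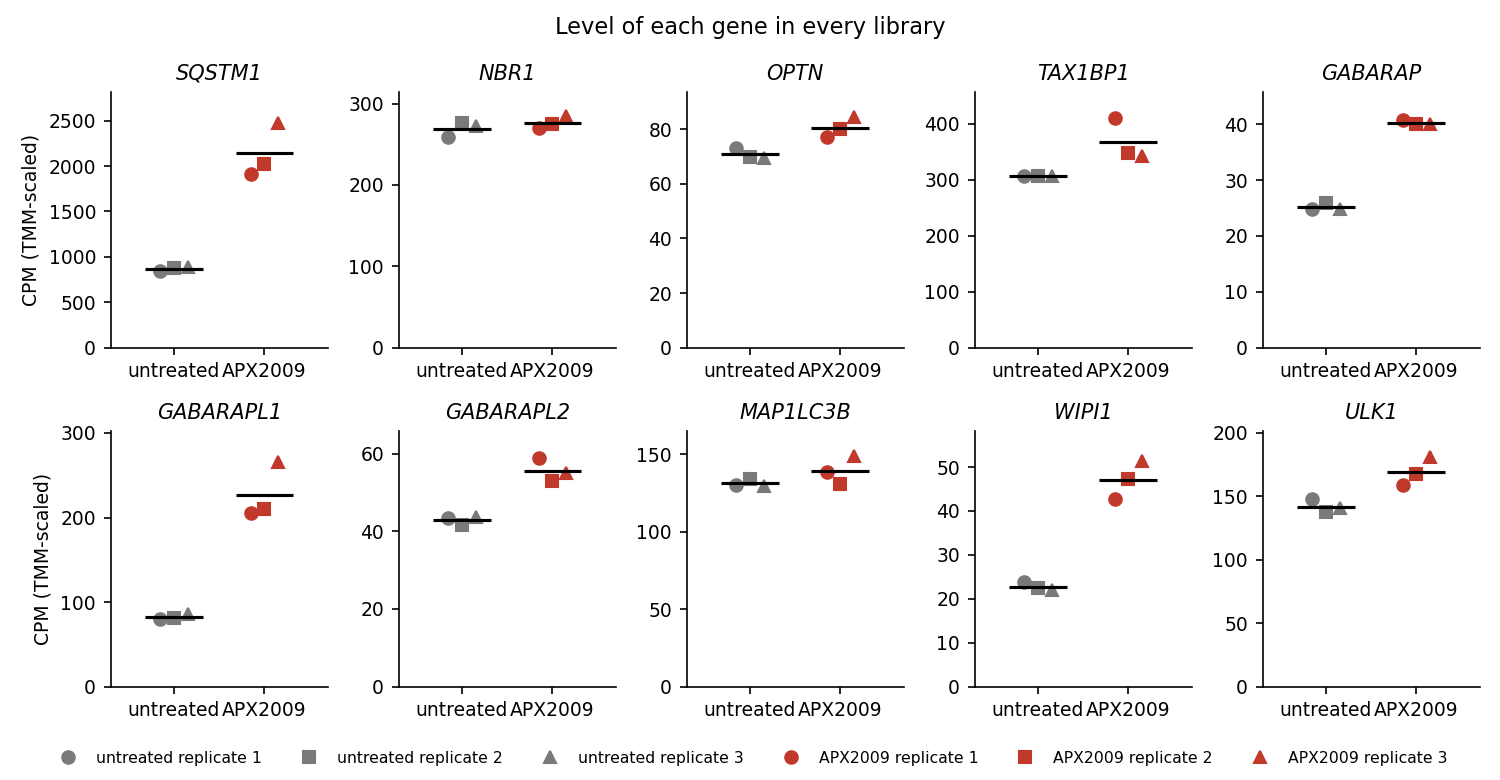
CPM (TMM-scaled counts) of each gene in the 6 libraries, on axes that start at 0. Each point is 1 library and each line a group mean of 3. The treated points lie above all untreated points in 8 panels and overlap with them for NBR1 and MAP1LC3B.

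The 4 ATG8 genes did not move alike. GABARAPL1 (ENSG00000139112, chromosome 12, plus strand, 10212458 to 10223130) codes for the ATG8 protein closest to GABARAP. It was at 80.2, 81.0 and 85.9 CPM in untreated and at 205, 210.5 and 266 CPM in treated libraries, well apart. Its log2 change was 1.46 ± 0.10 (SE; edgeR adjusted p = 4.37e-06), the largest of the 10. The promoter stretch with the cAMP response element printed above is that of this gene.

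GABARAP (ENSG00000170296, chromosome 17, minus strand, 7240014 to 7242770) codes for the founding member of its subfamily. Its level was 24.8, 25.8 and 24.9 CPM in untreated and 40.8, 40.0 and 40.0 CPM in treated libraries. The groups were each tight and far apart, with a log2 difference of 0.68 ± 0.07 (SE; edgeR adjusted p = 3.98e-05). A gene on the same strand, AC120057.2, covers 30.5% of the exon bases of GABARAP and was at 0 counts in every library. AC120057.3, on the opposite strand, covers 25.2% and had 2 to 10 counts a library. How reads in the shared exons were assigned is not given, so its level beside other genes is less certain than its change.

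GABARAPL2 (ENSG00000034713, chromosome 16, plus strand, 75566351 to 75577881), whose product is also known for Golgi transport, was at 43.5, 41.7 and 43.7 CPM in untreated and 59.0, 53.0 and 54.99 CPM in treated libraries. The groups did not overlap, and the log2 change was 0.37 ± 0.07 (SE; edgeR adjusted p = 0.00162). MAP1LC3B (ENSG00000140941, chromosome 16, plus strand, 87383995 to 87404779) codes for LC3B, the ATG8 protein most used as an autophagosome marker. It was at 130.1, 134 and 129.7 CPM in untreated and 138.5, 130.8 and 149 CPM in treated libraries, with APX2009 replicate 2 inside the untreated range. Its log2 change was 0.09 ± 0.07 (SE; edgeR adjusted p = 0.341), with a 95% interval from -0.06 to 0.23. Stretches of 50 bases shared with MAP1LC3B2 make up 6.88% of its longest transcript, and reads from there could go to either gene.

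The remaining ATG8 genes were scarce. MAP1LC3A rose from 0.767 ± 0.216 to 1.95 ± 0.714 CPM (SD, n = 3; edgeR adjusted p = 0.0111), on 12 to 58 counts a library. MAP1LC3B2 had 6 to 33 counts a library and was not tested. MAP1LC3C and the pseudogene GABARAPL3 had 0 counts in all 6 libraries, where 3 counts in a library is the level that a count of 0 allows.

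The make-up of ATG8 transcripts was compared as the share of each gene in their summed CPM per kb of exon, a measure within each library that scaling leaves untouched. GABARAPL1 made up 28.1%, 28.0% and 29.4% of this sum in untreated libraries and 43.6%, 45.9% and 49.8% in treated ones. MAP1LC3B made up 35.1%, 35.5% and 34.2% and then 22.6%, 21.9% and 21.5%. The gene with the largest share was thus MAP1LC3B in each untreated library and GABARAPL1 in each treated one. GABARAPL2 went from 20.0% ± 0.576 to 15.4% ± 1.49 and GABARAP from 15.7% ± 0.343 to 15.0% ± 1.24 (SD, n = 3). The sum itself went from 70.8 ± 0.838 to 119 ± 9.75 CPM per kb (SD, n = 3). Groups did not overlap for the shares of GABARAPL1, MAP1LC3B and GABARAPL2 (exact permutation p = 0.1 each, 0.233 adjusted over 7 genes), and they overlapped for GABARAP (exact permutation p = 0.5). AC120057.2, on the same strand, covers 30.5% of the exon bases of GABARAP, and how reads there were assigned is not given. The size of the GABARAP share, and through the sum that of every other share, is therefore uncertain.

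**Figure D3:**
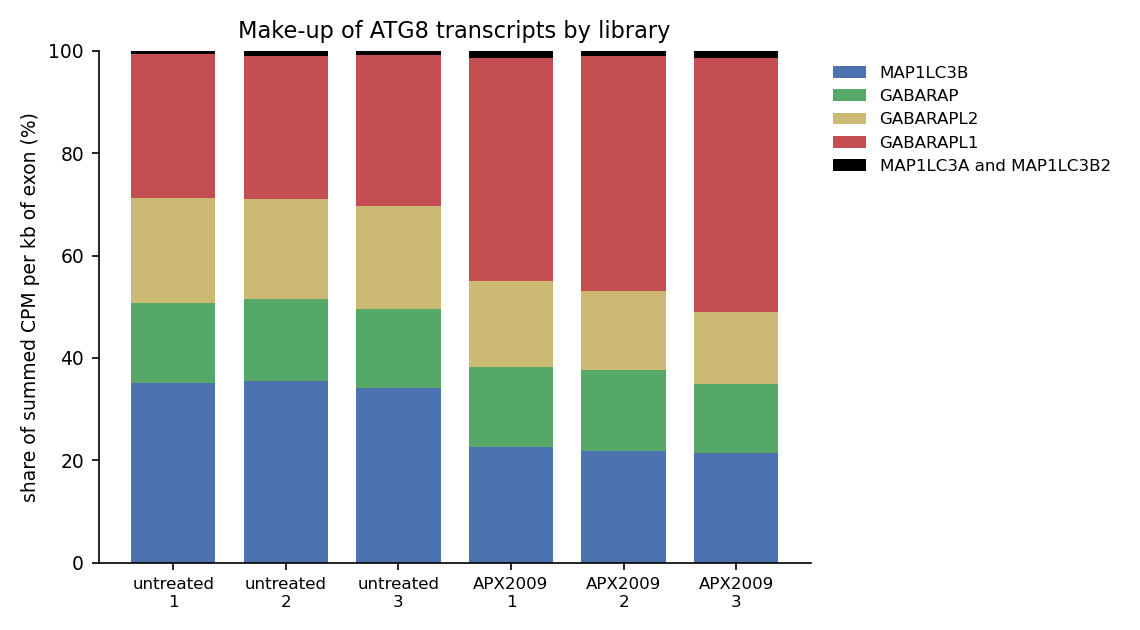
Share of each ATG8 gene in the summed CPM per kb of exon, in percent, for each of the 6 libraries (1 bar each). The GABARAPL1 part covers 28.0% to 29.4% of the untreated bars and 43.6% to 49.8% of the treated ones, while the MAP1LC3B part is smaller in each treated bar. The size of the GABARAP part is uncertain, because it is not given how reads in exons shared with AC120057.2 were assigned.

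WIPI1 (ENSG00000070540, chromosome 17, minus strand, 68420948 to 68457513) codes for a reader of phosphatidylinositol 3-phosphate and had the lowest level per kb of exon of the 10 genes in both groups, though not in treated cells when the longest transcript gave the length. Its level was 23.7, 22.5 and 22.0 CPM in untreated and 42.6, 47.3 and 51.4 CPM in treated libraries. No values overlapped, and the log2 change was 1.05 ± 0.08 (SE; edgeR adjusted p = 1.21e-05). Its paralogue WIPI2, which recruits the ATG8 conjugation enzymes, rose 1.19-fold (edgeR adjusted p = 0.0191). The ratio of WIPI1 to WIPI2 counts was 0.212, 0.200 and 0.188 in untreated and 0.335, 0.357 and 0.351 in treated libraries (exact permutation p = 0.1, adjusted p = 0.12). Exons of ARSG on the opposite strand cover 24.3% of the WIPI1 exon bases. ARSG had a log2 difference of 0.04 ± 0.14 (SE; edgeR adjusted p = 0.853).

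ULK1 (ENSG00000177169, chromosome 12, plus strand, 131894651 to 131923167) was at 147.5, 137 and 141 CPM in untreated and 159, 168 and 181 CPM in treated libraries. The lowest treated value lay above the highest untreated one. Its log2 change was 0.25 ± 0.07 (SE; edgeR adjusted p = 0.0171), which no longer passed without untreated replicate 2 or 3 (edgeR adjusted p = 0.0686 and 0.0694). The ratio of ULK1 to ULK2 counts was 14.1 to 16.7 in untreated and 12.4 to 14.4 in treated libraries, and these ranges overlap (exact permutation p = 0.2).

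On the scale of CPM per kb of exon, levels can be set beside each other across genes. In untreated cells SQSTM1 led at 113.8 ± 3.65, followed by TAX1BP1 at 33.5 ± 0.0276, NBR1 at 32.0 ± 1.12, MAP1LC3B at 24.7 ± 0.439 and GABARAPL1 at 20.2 ± 0.744 (SD, n = 3). Below these came ULK1 at 18.7 ± 0.675, GABARAPL2 at 14.2 ± 0.358, OPTN at 13.8 ± 0.408, GABARAP at 11.1 ± 0.253 and WIPI1 at 6.68 ± 0.263. The values of GABARAPL2 and OPTN overlapped between libraries, so their order is not resolved. In treated cells SQSTM1 led at 279 ± 39.1 and GABARAPL1 was next at 55.6 ± 8.16, above TAX1BP1 at 40.0 ± 4.12. With the length of the longest transcript in place of all exons, TAX1BP1 stayed above GABARAPL1 in treated cells, at 91.3 and 70.7 CPM per kb. On that length WIPI1 ranked 7 and OPTN 10 of the 10 genes in treated cells. In untreated cells it put ULK1 at rank 5 and GABARAPL1 at 6, and OPTN at 7 and GABARAPL2 at 8. The level of GABARAP also carries the limit on shared exons given above. The ranks of these genes therefore depend on the length used.

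The other genes of the pathway, 69 in 7 lists, served as context. Of the 65 tested, 18 rose and 6 fell, with a median log2 change of 0.12; these shares are read beside the 17.2% and 17.4% of all genes. Among 18 other receptors tested, 3 rose and 2 fell. CCPG1, a receptor for parts of the endoplasmic reticulum, rose 1.55-fold (edgeR adjusted p = 7.25e-04; 38.7% of its exon bases are shared with DNAAF4-CCPG1, at 0 counts in every library), CALCOCO1, which acts on the same organelle, 1.42-fold, and TOLLIP, named after its value was seen to complete the count, 1.20-fold. CALCOCO2, which codes for the bacterial and mitochondrial receptor NDP52, fell by 0.29 on the log2 scale, and PHB2, an inner mitochondrial membrane receptor, fell by 0.25. RETREG1 was not tested, with 1 to 9 counts a library.

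Among the genes of the early steps, the ULK complex had 2 of 4 genes higher, the scaffold gene RB1CC1 (1.40-fold) and ULK2 (1.36-fold). Of all genes tested, 17.2% rose. ATG13 and ATG101 had log2 changes of 0.23 and 0.08 and did not pass. Of 8 genes of the phosphatidylinositol 3-kinase complexes 2 rose, NRBF2 (1.83-fold; edgeR adjusted p = 2.22e-05) and ATG14 (1.49-fold), both parts of the complex that acts at the growing membrane. BECN1 and RUBCN had log2 changes of -0.12 and 0.24 and did not pass.

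Among 9 genes of lipid transfer and membrane supply 4 rose and 2 fell, beside 17.2% and 17.4% of all genes. TMEM41B, a scramblase of the endoplasmic reticulum, went from 55.2 ± 3.10 to 120.0 ± 7.65 CPM (SD, n = 3; edgeR adjusted p = 3.33e-06). ATG9B went from 15.1 ± 4.61 to 65.1 ± 19.1 CPM (SD, n = 3; edgeR adjusted p = 9.73e-05), with 12.3% of its exon bases under NOS3 on the opposite strand. NOS3 rose too, by 0.46 on the log2 scale (edgeR adjusted p = 4.32e-04), and the part of shared bases was not tested. ATG2A, a lipid transfer protein, fell by 0.37 on the log2 scale. The counts are completed by ATG9A (1.23-fold higher) and WDR45B (fell by 0.21 on the log2 scale), named after their values were seen. Of the ATG9A exon bases, 38.8% are shared with AC068946.2 on the same strand, which is not among the genes counted.

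At the conjugation step 2 of 11 genes rose and 1 fell. These counts, and those of the fusion genes below, are read beside the 17.2% and 17.4% of all genes. ATG4B and ATG4A, proteases that prepare ATG8 proteins and release them from lipid, rose 1.47-fold and 1.72-fold (edgeR adjusted p = 2.59e-04 and 0.00185). ATG7, the activating enzyme, fell by 0.29 on the log2 scale, and ATG4D had a log2 change of 0.27 that did not pass. Exons of VGLL4 on the opposite strand cover 18.1% of the ATG7 exon bases. Of 14 fusion genes 4 rose and 1 fell: the tethering subunit gene VPS41 rose 1.33-fold, RAB7A 1.25-fold and VAMP8 1.16-fold, while SNAP29 fell by 0.25 on the log2 scale. TECPR1, named after its value was seen to complete the count, rose 1.16-fold.

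Among regulators 5 of 21 rose and 5 fell, beside 17.2% and 17.4% of all genes. TFEB, a transcription factor for lysosomal and autophagy genes, was at 22.8 ± 0.784 CPM in untreated and 12.5 ± 1.98 CPM in treated libraries (SD, n = 3). It fell by 0.87 ± 0.12 on the log2 scale (SE; edgeR adjusted p = 3.27e-04). PRKAA1, a catalytic subunit of the energy sensor AMPK, fell by 0.40 on the log2 scale. TBK1, the kinase that acts on OPTN and p62, rose 1.43-fold (edgeR adjusted p = 2.34e-04). KEAP1, which p62 binds, rose 1.53-fold (edgeR adjusted p = 5.52e-04). The remaining 6 that passed were named after their values were seen. NFE2L2, the gene of NRF2, rose 1.24-fold and PRKAB2, also an AMPK subunit gene, 1.26-fold. RPTOR and MTOR, parts of the nutrient-sensing kinase complex that restrains ULK1, fell by 0.51 and 0.30 on the log2 scale. AKT1S1, of the same complex, rose 1.19-fold, and SESN2 fell by 0.36 on the log2 scale. SESN3 was not tested.

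**Figure D4:**
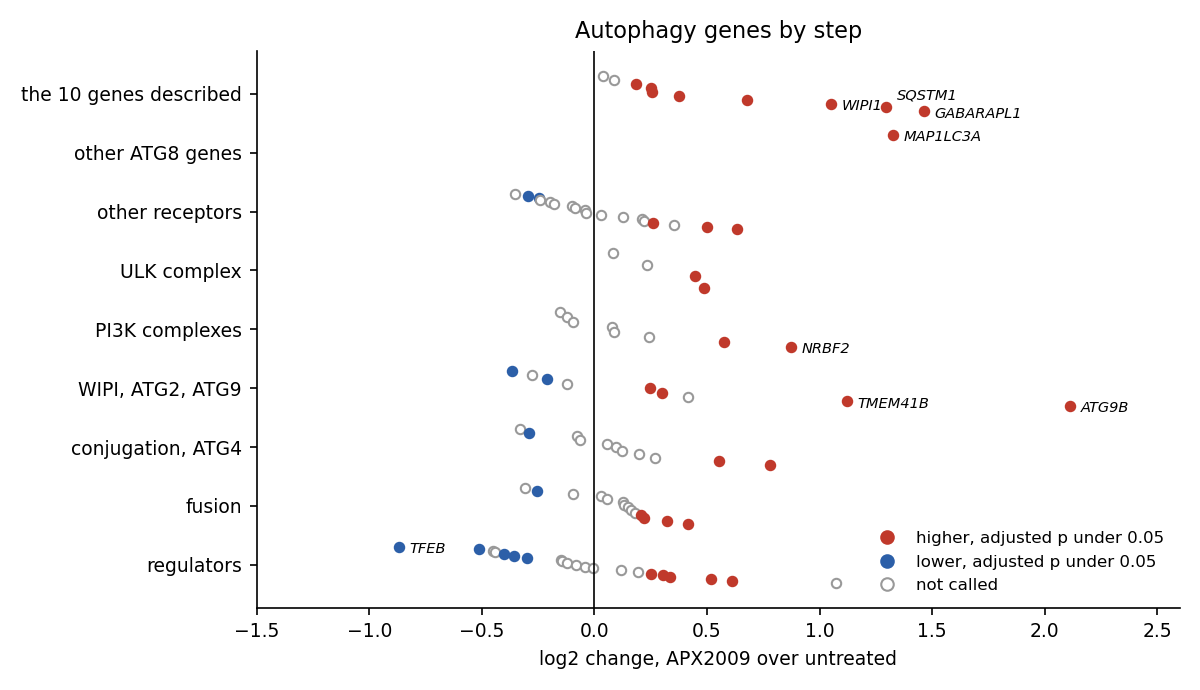
Log2 change, APX2009 over untreated, of each tested gene in the 10 genes and in 8 context lists, 1 point a gene. Red points rose, blue points fell and open points did not pass; the values run from -0.87 for TFEB to 2.11 for ATG9B.

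Scaling by the ERCC total in place of TMM left the direction of the 10 changes but not the calls. The log2 changes were then 1.49 for GABARAPL1, 1.32 for SQSTM1 and 1.08 for WIPI1. With edgeR 0 of the 10 genes passed on this scale (smallest adjusted p = 0.201), 3 at an unadjusted p under 0.05, and 0.873% of all genes were called higher. Against a 1.5-fold change in place of no change, edgeR kept GABARAPL1, SQSTM1 and WIPI1, where 2.38% of all genes were called higher.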

How the data were processed

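RNA sequencing libraries of 3 untreated and 3 APX2009-treated OE33 cultures were analysed; the series design calls the replicates independent. The authors deposited raw whole-number counts per Ensembl gene and per ERCC transcript (92), not normalized. Subread 1.5.2 with featureCounts, STAR 2.5.2b, Trimmomatic 0.36 and the GRCh38 build are listed, per the submitters' processing notes. Annotation release, strand setting and filters: not given in the sources used here. GENCODE 29 matched 57447 of 58051 genes; unmatched ones held 0.0348% of counts. Counts without ERCC rows were filtered with filterByExpr, scaled by TMM and tested with edgeR 4.0.16 (quasi-likelihood F-test, R 4.3.3) on treatment alone, with Benjamini-Hochberg adjustment over 14773 genes. SEs come from the F statistic. Single values were compared by exact permutation with scipy 1.17.1. Alternatives used DESeq2 1.42.0 and limma 3.58.1 (voom), other scalings, filters and thresholds, and left out each library. Simulated counts with known changes served to try the procedure. They were drawn with the dispersions of the same fit, so they cannot show that the fit suits these libraries. The members and lists were chosen with earlier results of these data known. All 10 genes are named, with up to 4 genes of smallest p per other list; genes left untested are also named, and other names are marked.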

Additional observations from a re-analysis of the deposited data

How the results depend on the processing

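All 10 log2 changes kept their direction under the 17 alternatives. The adjusted p under 0.01 and the test against 1.5-fold could not change it, as both keep the log2 changes of the full comparison. Of 170 values, 141 stayed on their side of the threshold and 29 no longer passed. The 141 include all 17 values each of NBR1 and MAP1LC3B, which did not pass in the full comparison either. With ERCC scaling 136 genes changed, 129 higher and 7 lower, and among the 10 genes 0 rose (edgeR; 3 at an unadjusted p under 0.05), while of the other autophagy genes 1 (ATG9B) rose and 0 fell (0 at an unadjusted p under 0.05). The SE of SQSTM1 was 0.10 with TMM and 0.48 with ERCC scaling, whose totals varied more between treated libraries; the cause was not tested. At an adjusted p under 0.01, 3057 genes changed, 1470 higher and 1587 lower, with 5 of the 10 genes higher and 3 other autophagy genes lower. Against a 1.5-fold change 606 changed, 351 higher and 255 lower, with 3 of the 10 and 3 other autophagy genes higher and 0 lower (edgeR; 0 at an unadjusted p under 0.05). Without a filter, 10 other autophagy genes were lower in place of 6; the cause was not tested. Leaving out 1 library left 5 to 8 of the 10 genes higher (8 in the full comparison; 5 without untreated replicate 2 or 3, where OPTN, TAX1BP1 and ULK1 did not pass), 13 to 27 other autophagy genes higher and 2 to 8 lower (2 without untreated replicate 3, 3 without APX2009 replicate 2, 4 without untreated replicate 2; 27 higher without APX2009 replicate 1). Over all genes, leaving out 1 library left 1708 to 2839 higher and 1795 to 2870 lower. The share of MAP1LC3B among ATG8 transcripts changed by -12.9 points, by -14.1 with the longest transcript and by -16.4 without length correction. With the replicate number as a block 7 of the 10 genes rose and OPTN did not pass (edgeR adjusted p = 0.0679). The numbers were not taken as pairs because the series names no pairing. Same-numbered libraries had correlations of deviations of 0.157, 0.0955 and 0.0417, and other combinations -0.154 to 0.132. Not every library correlated best with its own number, and whether the numbers mark pairs was not tested. DESeq2 called 7 of the 10 higher and limma voom 8.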
